A study of Mus musculus with 4 samples.

Results

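The genes described here set the pace of the G1 phase. They are the D cyclins (Ccnd1, Ccnd2 and Ccnd3), the kinases that D cyclins activate (Cdk4 and Cdk6), the CIP/KIP inhibitors Cdkn1a and Cdkn1b, and the INK4 inhibitors Cdkn2a, Cdkn2c and Cdkn2d, 10 genes in all, taken by their symbols from the deposited tables. In the vector table all 10 were measured, among 23259 named genes, and 9 had a mean over both libraries of 1 FPKM or more, the filter used below, as did 10822 genes in all. In the table of regulatory T cells (Treg), which has 10663 named genes, 8 were analysed and 7 passed the filter, as did 10545 genes in all. Ccnd1 and Cdkn1a were not analysed here in Treg. FPKM, the fragments of a gene scaled to the length of its transcript and to the size of the library, is a level per length, so that levels of different genes can be set side by side within a table.

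D cyclins are made in response to growth signals, which in T cells include the antigen receptor and interleukin-2. They bind Cdk4 or Cdk6, and the active kinase phosphorylates the retinoblastoma protein and its relatives, which then release E2F factors to switch on the genes of DNA replication. INK4 proteins bind Cdk4 and Cdk6 and keep D cyclins off them. CIP/KIP proteins block the cyclin E and cyclin A kinases and are themselves held by D cyclin complexes. The locus Cdkn2a is unusual in encoding p16INK4a, an INK4 protein, and p19Arf, an unrelated protein that stabilises p53, from separate first exons read into a shared exon in different frames.

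The series holds 4 mouse libraries in 2 experiments, each with 1 library per group. In the first, Treg were purified from the spleen of Balb/c Foxp3-hCD2 reporter mice by their human CD2, either after 7 days of drinking water with 3% dextran sulfate sodium (DSS), a polymer that injures the colon, or without treatment. In the second, wild-type C57BL6 mice gave naive CD4 T cells that were transduced with a vector carrying the transcription factor Sox12 or with a mock vector, and the sources used here do not give the promoter of the vector, the sorting of transduced cells or the days in culture. They do not give the number of animals behind a library either. Since each group has a single library, the differences below have no replicate check, and no test was run.

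The genes checked went with the cell type and the vector given in the labels. They do not tell which Treg library came from DSS-treated mice. Sox12 had 829 FPKM with the Sox12 vector and 1.56 FPKM with the mock vector, where vector and endogenous transcripts cannot be told apart. Foxp3 had 84.9 FPKM in DSS Treg and 88.2 FPKM in untreated Treg. The plasma cell gene Igj stood above it in both, at 231 FPKM in DSS Treg and 277 FPKM in untreated Treg. The summed level of 5 T cell identity genes (Cd3d, Cd3e, Cd3g, Cd4 and Cd28) was 1416 FPKM in DSS Treg, 1396 FPKM in untreated Treg, 843 FPKM with the Sox12 vector and 960 FPKM with the mock vector. The low values of the vector table gave an estimated 44.8 fragments per kilobase at 1 FPKM in the Sox12 vector library and 42.9 in the mock vector library, from 26 and 24 genes at the most frequent value. The absolute depth of the Treg libraries is unknown.

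The starts of 3 of these genes are shown because their levels differed most between the vector libraries. Each line gives the 250 bases before a RefSeq start of the build GRCm38.p6, 5′ to 3′ on the strand of the gene, with matches to the motifs searched in capitals. Cdkn2a lies on the minus strand of chromosome 4 and has a first start (chr4:89294620-89294869), which opens the p19Arf transcript, and a second (chr4:89282193-89282442), which opens the p16INK4a transcript. Cdk4 lies on the plus strand of chromosome 10 (chr10:127063285-127063534) and the first start of Ccnd3 on the plus strand of chromosome 17 (chr17:47504801-47505050).
Cdkn2a first start: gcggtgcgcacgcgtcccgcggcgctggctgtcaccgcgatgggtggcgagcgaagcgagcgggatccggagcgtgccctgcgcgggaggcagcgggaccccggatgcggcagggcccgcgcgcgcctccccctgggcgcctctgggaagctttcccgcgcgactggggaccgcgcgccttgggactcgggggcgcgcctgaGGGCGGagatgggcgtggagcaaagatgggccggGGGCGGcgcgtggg
Cdkn2a second start: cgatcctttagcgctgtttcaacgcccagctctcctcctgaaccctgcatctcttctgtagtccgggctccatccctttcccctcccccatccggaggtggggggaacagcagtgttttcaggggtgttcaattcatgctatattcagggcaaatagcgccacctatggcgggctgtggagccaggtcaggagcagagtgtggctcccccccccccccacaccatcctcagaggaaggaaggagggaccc
Cdk4: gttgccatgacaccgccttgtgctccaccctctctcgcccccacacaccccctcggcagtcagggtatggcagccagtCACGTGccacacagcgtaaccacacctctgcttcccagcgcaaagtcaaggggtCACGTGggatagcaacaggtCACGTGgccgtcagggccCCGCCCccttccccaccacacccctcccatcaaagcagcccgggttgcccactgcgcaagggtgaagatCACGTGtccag
Ccnd3 first start: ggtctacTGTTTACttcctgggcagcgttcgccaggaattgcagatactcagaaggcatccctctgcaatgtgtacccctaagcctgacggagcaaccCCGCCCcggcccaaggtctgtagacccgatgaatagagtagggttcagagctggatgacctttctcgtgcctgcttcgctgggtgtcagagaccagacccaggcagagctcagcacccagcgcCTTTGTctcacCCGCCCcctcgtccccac

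The table of starts held 8 of the 10 genes, with 12 windows, and Ccnd1 and Ccnd2 were not among them. The motifs were searched on both strands, no motif being part of another, and all 32851 windows of the table served as background. Cdk4 had 4 matches to CACGTG, the E-box core read by Myc and related factors, beginning 172, 118, 98 and 11 bases before the start, and 6.02% of all windows hold at least 1. Cdk6 had 1 match to CACGTG. The starts of Cdkn2a differed in base composition, with 78.4% G and C before the first and 60.0% before the second. The first held 2 matches to the GC box GGGCGG, which 32.7% of all windows hold, and the second held 0. The GC box was also found before starts of Ccnd3, Cdk4, Cdkn1a, Cdkn1b, Cdkn2c and Cdkn2d. The first start of Cdkn2c and the start of Cdkn2d had 3 matches each. The Sox motif letters ACAAAG or ACAATG are in 25.2% of all windows. Among the 12 windows of these genes they occurred once, as ACAAAG on the minus strand before the first start of Ccnd3, beginning 29 bases before it. That window also held the FoxO motif GTAAACA, found in 3.17% of all windows. The E2F motifs TTTCGCGC and TTTGGCGC, present in 0.654% of all windows, and the STAT motif TTCNNNGAA, present in 7.02%, are not among the letters of the 12 windows. These matches describe the sequence and are not binding sites.

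With the Sox12 vector, Cdkn2a, Cdk4 and Cdkn1b stood at higher levels than with the mock vector and Ccnd3 at a lower level, while the summed level of the D cyclins was nearly alike. Changes are differences of log2(FPKM + 1), Sox12 minus mock vector, and the size rule asks for a change of 1 or more in size, which means at least 2 times on this scale. By this rule 1 of the 9 genes past the filter was higher and 0 were lower, beside 4.85% higher, 1.91% lower and 6.76% in either direction of all genes past it. A count of 1 among 9 is not read as a result about the group. Of the 9 genes, 5 were higher and 4 lower by any amount, against 48.9% and 51.1% of all genes. Their median change was 0.22, beside -0.01 for all genes.

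Cdkn2a, the locus of p16INK4a and p19Arf, had 19.9 FPKM with the Sox12 vector and 5.49 FPKM with the mock vector. This is a ratio of 3.62 and a log2 change of 1.69, which ranked 183 from the highest among the 10822 genes. The level corresponds to about 758 fragments (exact 95% Poisson interval 705 to 814) in the Sox12 vector library and about 201 (174 to 231) in the mock vector library, counted on the shortest coding transcript. The ratio had an exact 95% interval of 3.09 to 4.25, which covers counting error only and leaves out differences between preparations and animals. In bulk RNA, fewer cells that express a gene and less RNA per cell cannot be told apart.

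The value of Cdkn2a is for the whole gene. In the GENCODE M21 annotation its 2 coding transcripts have separate first exons of 207 and 320 bases with 0 bases in common, and share 575 bases, 67.5% of Cdkn2a-201 (852 bases) and 64.2% of Cdkn2a-202 (895 bases). The table therefore does not show which of the starts printed above gave the higher level. None of the 1120 different 50-base words of its transcripts occurred in a transcript of another gene on either strand, so the level is not shared with a close copy in that annotation. The neighbouring Mtap, an enzyme of methionine salvage chosen after its value was seen, had 33.0 FPKM with the Sox12 vector and 29.1 FPKM with the mock vector.

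Cdkn2c and Cdkn2d did not follow Cdkn2a. Cdkn2c, which encodes p18INK4c, had 18.8 FPKM with the Sox12 vector and 23.4 FPKM with the mock vector, a ratio of 0.804 and a log2 change of -0.30. Cdkn2d, which encodes p19INK4d, had 20.8 FPKM with the Sox12 vector and 25.9 FPKM with the mock vector, also a ratio of 0.804. The counting intervals of these ratios were 0.736 to 0.878 for Cdkn2c and 0.743 to 0.869 for Cdkn2d. The level of Cdkn2c relative to Cdkn2d was 0.905 in each library. The summed FPKM of these 3 INK4 genes was 59.5 with the Sox12 vector and 54.8 with the mock vector, of which Cdkn2a made up 33.4% with the Sox12 vector and 10.02% with the mock vector. The sum leaves out Cdkn2b, the remaining INK4 gene, which is described with the other inhibitors, and with it the sum over 4 genes was 72.5 FPKM with the Sox12 vector and 57.9 FPKM with the mock vector, a ratio of 1.25.

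**Figure D1:**
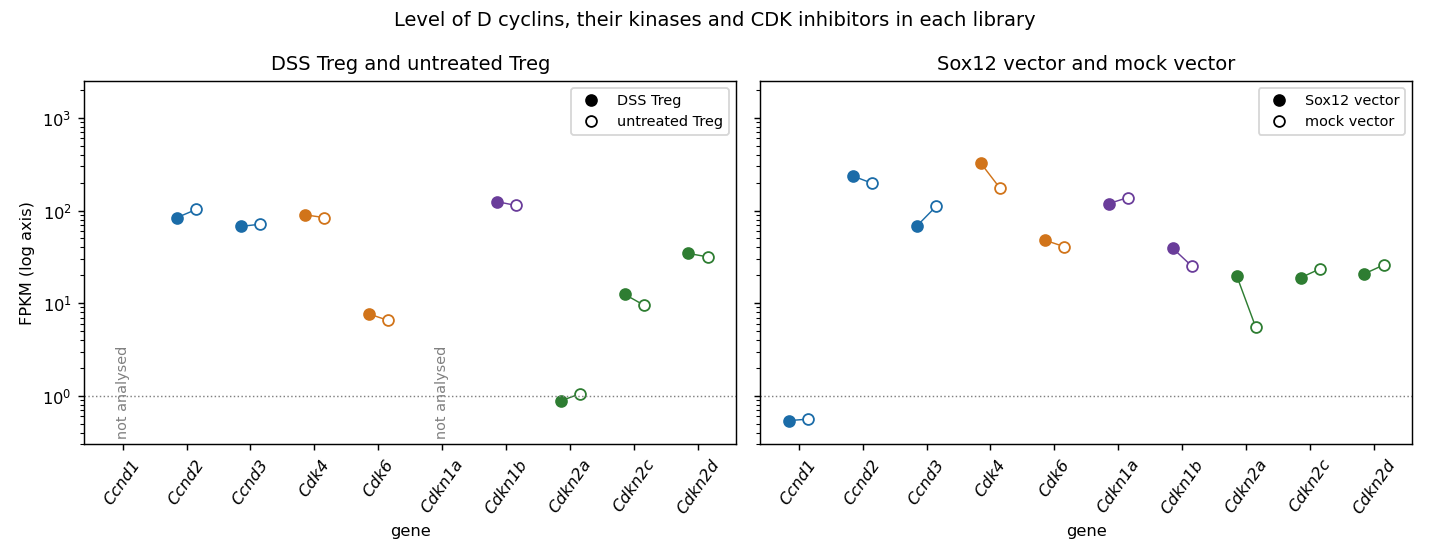
Level of each gene in FPKM on a log axis, with 1 point per library, for Treg (left) and transduced CD4 T cells (right). Filled points are DSS Treg or the Sox12 vector, open points untreated Treg or the mock vector, the dotted line is 1 FPKM, and colours mark the role of the gene. Cdkn2a is at 19.9 FPKM with the Sox12 vector and 5.49 FPKM with the mock vector. In Treg, from another mouse strain and normalised separately, it is at 0.880 FPKM with DSS and 1.05 FPKM without treatment.

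Of the CIP/KIP genes, Cdkn1b, which encodes p27Kip1, a brake on entry into the cycle in resting T cells, had 39.2 FPKM with the Sox12 vector and 25.1 FPKM with the mock vector. This is a ratio of 1.56 (counting interval 1.48 to 1.66) and a log2 change of 0.62, short of the size rule, at rank 1003 from the highest. Cdkn1a, which encodes p21Cip1, a target of p53 that also rises with T cell activation, had 118.7 FPKM with the Sox12 vector and 138 FPKM with the mock vector, a ratio of 0.859. Cdkn1a was the more abundant in both libraries, at 3.03 times the level of Cdkn1b with the Sox12 vector and 5.50 times with the mock vector. The sum of the pair was 158 FPKM with the Sox12 vector and 163 FPKM with the mock vector.

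Cdk4, the main D cyclin kinase of these cells by level, had 324 FPKM with the Sox12 vector and 174 FPKM with the mock vector. The ratio was 1.86 (counting interval 1.80 to 1.93) and the log2 change 0.89, at rank 627 from the highest and below the size rule. Cdk6 had 47.9 FPKM with the Sox12 vector and 40.8 FPKM with the mock vector, a ratio of 1.17. The level of Cdk4 was 6.77 times that of Cdk6 with the Sox12 vector and 4.26 times with the mock vector. Of the 50-base words of Cdk4, 24.2% also occur on the opposite strand in the overlapping gene Tspan31, a tetraspanin, which had 42.7 FPKM with the Sox12 vector and 55.1 FPKM with the mock vector. Tspan31 was chosen for this overlap, and its part in the level of Cdk4 was not tested. The library kit keeps strand, but the sources used here do not say whether the quantification used it.

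The make-up of the D cyclins differed between the vectors. Ccnd2, the most abundant D cyclin in both libraries and a target of interleukin-2 signals, had 235 FPKM with the Sox12 vector and 197 FPKM with the mock vector, a ratio of 1.20. Ccnd3, which mouse thymocytes need for their expansion, had 68.3 FPKM with the Sox12 vector and 111 FPKM with the mock vector, a ratio of 0.616 (counting interval 0.587 to 0.645) and a log2 change of -0.69. That change ranked 521 from the lowest of 10822 genes. Ccnd1, the D cyclin of many epithelial and mesenchymal cells, was below the filter at 0.541 FPKM with the Sox12 vector and 0.561 FPKM with the mock vector. The estimate came to about 90 fragments in each library, with a counting interval of the ratio from 0.708 to 1.30, so no difference was detectable at this depth.

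The summed FPKM of the D cyclins was 304 with the Sox12 vector and 308 with the mock vector. Ccnd2 made up 77.4% of it with the Sox12 vector and 63.9% with the mock vector, and Ccnd3 made up 22.4% with the Sox12 vector and 35.96% with the mock vector. The ratio of Ccnd2 to Ccnd3 was 3.45 with the Sox12 vector and 1.78 with the mock vector. For Ccnd3, 4.58% of the 50-base words occur in the processed pseudogene Ccnd3-ps and 9.99% on the opposite strand in Bysl, a ribosome assembly factor at 14.3 FPKM with the Sox12 vector and 14.2 FPKM with the mock vector. For Ccnd1, 27.2% occur on the opposite strand in LTO1, measured under the symbol Oraov1. It had 4.50 FPKM with the Sox12 vector and 4.80 FPKM with the mock vector, above Ccnd1 in both libraries. The part of LTO1 in the level of Ccnd1 was not tested. For Cdkn1b, Cdkn2c and Cdkn2d, 0 words occur elsewhere.

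**Figure D2:**
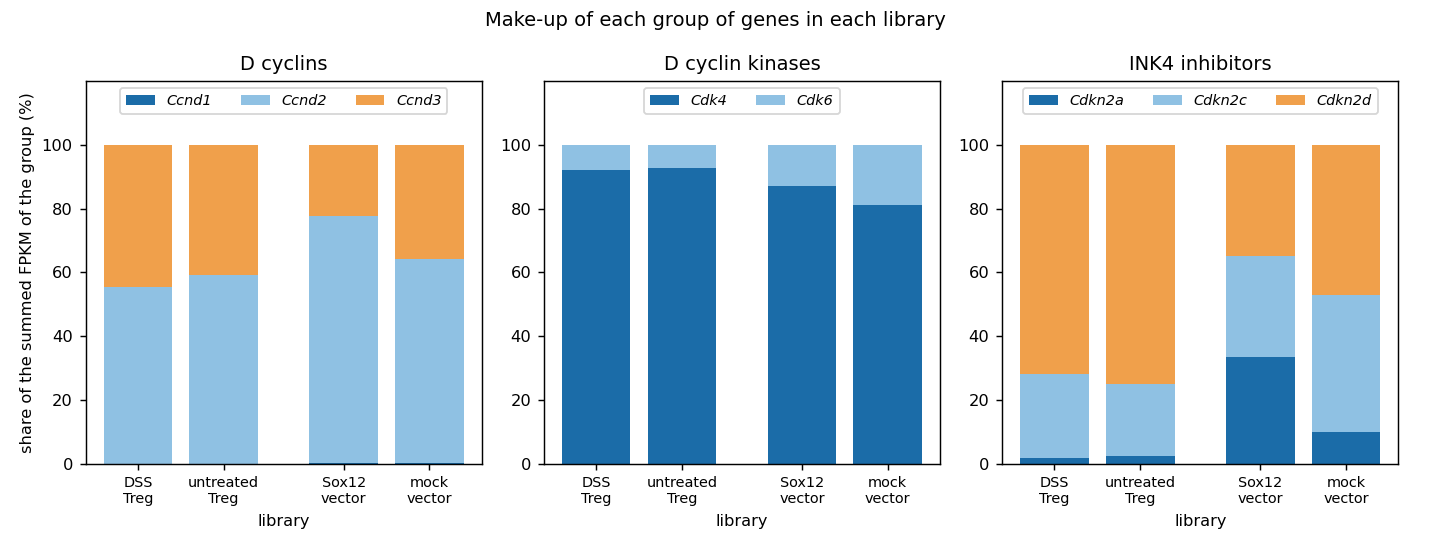
Share in percent of the summed FPKM of the D cyclins, of their kinases and of the INK4 inhibitors Cdkn2a, Cdkn2c and Cdkn2d that each gene held in each library, as stacked bars (DSS Treg, untreated Treg, Sox12 vector, mock vector). Ccnd2 holds 77.4% of the D cyclin level with the Sox12 vector and 63.9% with the mock vector, and Cdkn2a holds 33.4% of the summed level of the 3 INK4 genes with the Sox12 vector and 10.02% with the mock vector. In Treg Cdkn2d holds 72.0% of that sum with DSS and 74.9% without treatment.

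Further inhibitors and regulators of the same pathway were read from lists chosen with earlier results of these data known. Of the other inhibitor list, Cdkn1c, which encodes p57Kip2 and is imprinted in mouse, had 10.2 FPKM with the Sox12 vector and 0.318 FPKM with the mock vector, a ratio of 32.2 that rests on about 26 fragments (17.0 to 38.1) in the mock vector library. Of its 50-base words 25.7% occur on the opposite strand in Gm44732. Cdkn2b, which lies beside Cdkn2a and encodes p15INK4b, had 13.0 FPKM with the Sox12 vector and 3.17 FPKM with the mock vector, a ratio of 4.10 (counting interval 3.50 to 4.83). Cdkn3, a phosphatase that acts on CDKs, was lower at 16.0 FPKM with the Sox12 vector and 24.2 FPKM with the mock vector. Of the 3 genes of this list 2 were thus at least 2 times higher, beside 4.85% of all genes, in a list too short to be read against that share.

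The list drawn up for the Cdkn2a locus holds Polycomb genes and Mdm2, which acts on p53 and is not counted here as a regulator of the locus. Of its 6 genes 3 were higher and 3, Mdm2 among them, lower with the Sox12 vector, with a median of 0.33 over all 6. Bmi1, a Polycomb protein known as a repressor of Cdkn2a, had 29.9 FPKM with the Sox12 vector and 10.2 FPKM with the mock vector. It was the 1 member at least 2 times higher, beside 4.85% of all genes, which is not read as a result about the list. The list of p27 turnover and FoxO genes had 4 of 7 higher, with a median of 0.29, and Foxo1, a factor that activates Cdkn1b, had 37.0 FPKM with the Sox12 vector and 14.8 FPKM with the mock vector. Of 11 genes of the p53 list 10 were higher and 1 lower, with a median of 0.29, although Cdkn1a itself was lower, and 48.9% of all genes were higher. The 3 that were at least 2 times higher, beside 4.85% of all genes, were Trp53inp1, Sesn1 and the apoptosis gene Pmaip1. They had 45.2 FPKM, 25.1 FPKM and 18.3 FPKM with the Sox12 vector, against 12.9 FPKM, 8.44 FPKM and 7.90 FPKM with the mock vector. FoxO factors also activate Sesn1. The part of p53 or of FoxO factors in these levels and in that of Cdkn1b was not tested.

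The machinery downstream of the D cyclins showed no common direction in the transduced cells. The E2F target list had 7 of 16 genes higher and 9 lower, with a median of -0.01, and Pcna, the sliding clamp of replication, had 349 FPKM with the Sox12 vector and 352 FPKM with the mock vector. Top2a, a topoisomerase of dividing cells, had 224 FPKM with the Sox12 vector and 192 FPKM with the mock vector. The G1 and S list had 3 of 5 higher (median 0.20), with the cyclin E gene Ccne1 and the cyclin A gene Ccna2 at 46.8 FPKM and 92.9 FPKM with the Sox12 vector, against 40.7 FPKM and 119.7 FPKM with the mock vector. The G2 and M list had 1 of 5 higher (median -0.22), with the cyclin B genes Ccnb1 and Ccnb2 at 45.7 FPKM and 74.1 FPKM with the Sox12 vector, against 49.2 FPKM and 86.3 FPKM with the mock vector.

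The retinoblastoma gene Rb1 had 25.5 FPKM with the Sox12 vector and 20.2 FPKM with the mock vector. Rbl1 had 26.95 FPKM with the Sox12 vector and 26.5 FPKM with the mock vector. All 3 pocket protein genes were higher, beside 48.9% of all genes, with a median of 0.32. Of the E2F and DP factors 4 of 10 were higher (median -0.03), and the most abundant, Tfdp1 and E2f4, had 131 FPKM and 91.8 FPKM with the Sox12 vector, against 135 FPKM and 108 FPKM with the mock vector. The mitogen and interleukin-2 list, which also holds the feedback inhibitors Cish and Socs2, had 5 of 11 genes higher and 6 lower (median -0.06). Il2, the growth factor itself, had 8.40 FPKM with the Sox12 vector and 35.1 FPKM with the mock vector. It was the 1 member of that list at least 2 times lower, beside 1.91% of all genes, which is not read as a result about the list.

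Markers of NK and CD8 T cells also differed between the vector libraries. All 10 were higher with the Sox12 vector, beside 48.9% of all genes. Of them 7 were at least 2 times higher, beside 4.85% of all genes. Their summed level was 515 FPKM with the Sox12 vector and 155 FPKM with the mock vector, and no marker of the list was at 0. Gzma, a granzyme, had 57.2 FPKM with the Sox12 vector and 2.35 FPKM with the mock vector. Of the macrophage list the sum over 8 markers was 80.3 FPKM with the Sox12 vector and 24.7 FPKM with the mock vector, but Fcer1g, a signalling chain that NK cells also carry, made up 67.1 FPKM of it with the Sox12 vector and 18.8 FPKM with the mock vector. Tyrobp of the same list had 9.18 FPKM with the Sox12 vector and 2.33 FPKM with the mock vector. All 3 macrophage markers past the filter were higher, and 2 of them, Fcer1g and Tyrobp, at least 2 times. Below the filter, the receptor Csf1r was at 0 in both libraries. Lyz2, a lysozyme, had 0.0242 FPKM with the Sox12 vector and 0.0254 FPKM with the mock vector. Fcgr3 had 0.638 FPKM with the Sox12 vector and 0.330 FPKM with the mock vector. Foxp3, the factor that defines Treg, had 127 FPKM with the Sox12 vector and 20.9 FPKM with the mock vector, a ratio of 6.08. Of the 6 genes of the Treg list 2 were higher, beside 48.9% of all genes, and 4 were lower. Foxp3 alone was at least 2 times higher and Folr4 alone at least 2 times lower, beside 4.85% and 1.91% of all genes. Folr4 had 38.9 FPKM with the Sox12 vector and 124 FPKM with the mock vector. The 6 genes summed to 1090 FPKM with the Sox12 vector and 1293 FPKM with the mock vector. Of these sums Il2ra made up 568 FPKM and 629 FPKM. The part of these genes in the differences of the cell cycle genes was not tested.

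**Figure D3:**
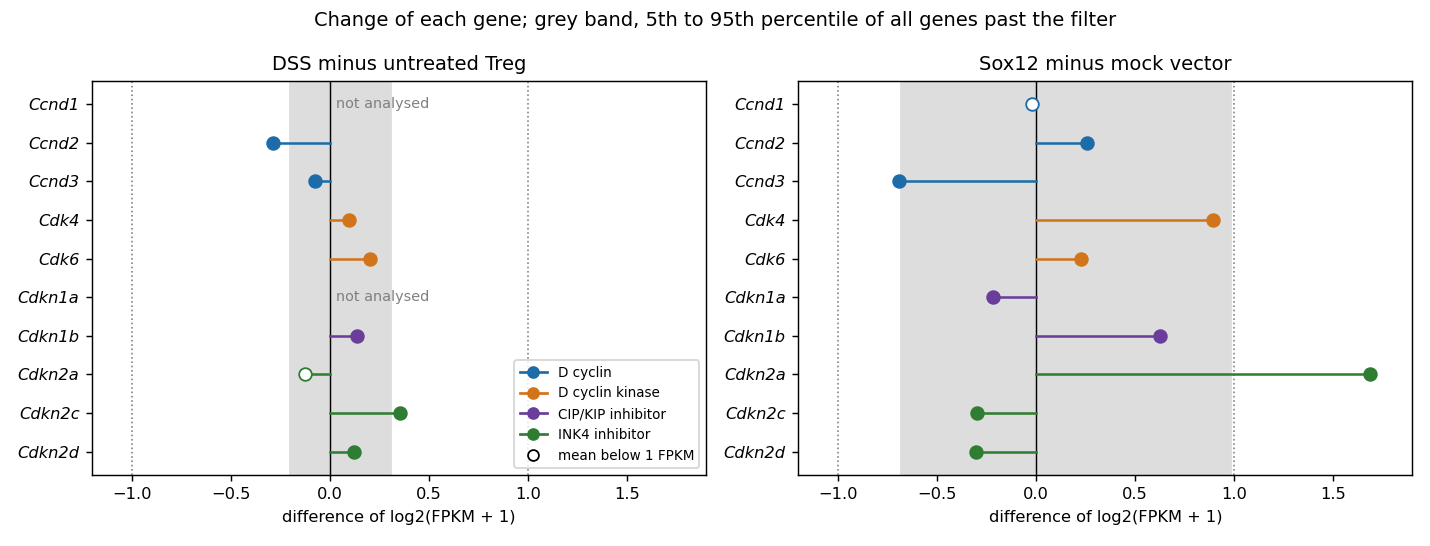
Difference of log2(FPKM + 1) for each gene, DSS minus untreated Treg (left) and Sox12 minus mock vector (right). Colours mark the role of the gene, open points a mean below 1 FPKM, dotted lines the size rule, and the grey band the range from the 5th to the 95th percentile of all genes past the filter, which is -0.20 to 0.31 on the left and -0.68 to 0.98 on the right. Cdkn2a on the right, at 1.69, is the 1 gene past the dotted lines.

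In Treg of DSS-treated mice the same genes differed little from untreated Treg. Cdkn2c had the highest ratio of the 8 and Ccnd2 the lowest. Of the 7 genes past the filter 0 met the size rule, which 0.19% of all genes met upward, 0.0759% downward and 0.266% in either direction. Of the 7 genes 5 were higher and 2 lower, against 66.1% and 33.9% of all genes, so their directions lay near those of the table. Their median change was 0.12, beside 0.05 for all genes.

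Ccnd2 had 83.9 FPKM in DSS Treg and 103 FPKM in untreated Treg, a ratio of 0.818. Its log2 change of -0.29 ranked 266 from the lowest of 10545 genes. Ccnd3 had 67.5 FPKM in DSS Treg and 71.2 FPKM in untreated Treg, a ratio of 0.948. Ccnd2 was the more abundant in both libraries, with 55.4% of the sum of the pair in DSS Treg and 59.1% in untreated Treg. That sum was 151 FPKM in DSS Treg and 174 FPKM in untreated Treg. The mitogen and interleukin-2 list also holds the feedback inhibitors Cish and Socs2, both lower in DSS Treg. Of its 10 genes 7 were lower and 3 higher, beside 33.9% and 66.1% of all genes, with a median of -0.16. The receptor chains Il2rg and Il2rb had 289 FPKM and 211 FPKM in DSS Treg, against 339 FPKM and 237 FPKM in untreated Treg.

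Cdk4 had 89.98 FPKM in DSS Treg and 84.0 FPKM in untreated Treg, and Cdk6 had 7.67 FPKM in DSS Treg and 6.53 FPKM in untreated Treg. The level of Cdk4 was 11.7 times that of Cdk6 in DSS Treg and 12.9 times in untreated Treg. Cdkn1b was the most abundant of the 8 genes in Treg, at 125 FPKM in DSS Treg and 114 FPKM in untreated Treg, a ratio of 1.10. All 3 of these differences lay inside the range that holds the middle 90% of genes.

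Among the INK4 genes Cdkn2d was the most abundant in Treg, with 34.4 FPKM in DSS Treg and 31.6 FPKM in untreated Treg. Cdkn2c had 12.5 FPKM in DSS Treg and 9.56 FPKM in untreated Treg, a ratio of 1.31 and a log2 change of 0.35, at rank 389 from the highest. Cdkn2a, with a mean below the filter, had 0.880 FPKM in DSS Treg and 1.05 FPKM in untreated Treg. In DSS Treg the level of Cdkn2d was 39.1 times and in untreated Treg 30.1 times that of Cdkn2a, whereas in transduced cells it was 1.05 times with the Sox12 vector and 4.71 times with the mock vector. These ratios are within a library, as the tables were normalised separately. The Treg ratios divide by a level near 1 FPKM, so the difference between them is not read. Mouse strain, cell type and handling also differ between the experiments, so Treg and transduced cells are not compared for a cause.

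Around these genes the replication machinery stood higher in DSS Treg, by small amounts. All 16 E2F target genes were higher, with a median of 0.23, a direction shared by 66.1% of all genes. Pcna had 145 FPKM in DSS Treg and 132 FPKM in untreated Treg, and the helicase subunit gene Mcm6 had 44.5 FPKM in DSS Treg and 39.3 FPKM in untreated Treg. The G1 and S list (median 0.28) and the G2 and M list (median 0.26) had 5 of 5 higher each, with Ccna2 and Ccnb2 at 34.6 FPKM and 27.9 FPKM in DSS Treg, against 27.03 FPKM and 23.0 FPKM in untreated Treg. The kinase gene Cdk2 and the phosphatase gene Cdc25b had 22.6 FPKM and 53.7 FPKM in DSS Treg, against 19.04 FPKM and 47.9 FPKM in untreated Treg. Of the E2F and DP factors 8 of 10 were higher (median 0.18), with E2f4 and Tfdp1 at 77.6 FPKM and 36.2 FPKM in DSS Treg, against 68.0 FPKM and 32.97 FPKM in untreated Treg. Of the 3 pocket protein genes 1 was higher, Rbl2, at 70.4 FPKM in DSS Treg and 61.8 FPKM in untreated Treg, and Rb1 had 28.2 FPKM in DSS Treg and 28.4 FPKM in untreated Treg.

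Of the p27 turnover and FoxO genes 5 of 7 were higher in DSS Treg (median 0.11), beside 66.1% of all genes. Of the Polycomb genes and Mdm2 listed for the Cdkn2a locus 5 of 6 were higher (median 0.08), and of p53 genes 8 of 10 (median 0.08). No member of these lists met the size rule, which 0.266% of all genes met. Foxo1 had 64.6 FPKM in DSS Treg and 66.5 FPKM in untreated Treg, and Foxo4 had 19.9 FPKM in DSS Treg and 17.9 FPKM in untreated Treg. The Polycomb gene Cbx7 and Mdm2, the ligase that degrades p53, had 42.7 FPKM and 36.3 FPKM in DSS Treg, against 38.7 FPKM and 35.5 FPKM in untreated Treg. Trp53 itself and its target Trp53inp1 had 67.9 FPKM and 103 FPKM in DSS Treg, against 66.1 FPKM and 108 FPKM in untreated Treg. Of the other inhibitor list Cdkn3 alone was analysed here, at 5.16 FPKM in DSS Treg and 4.22 FPKM in untreated Treg.

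**Figure D4:**
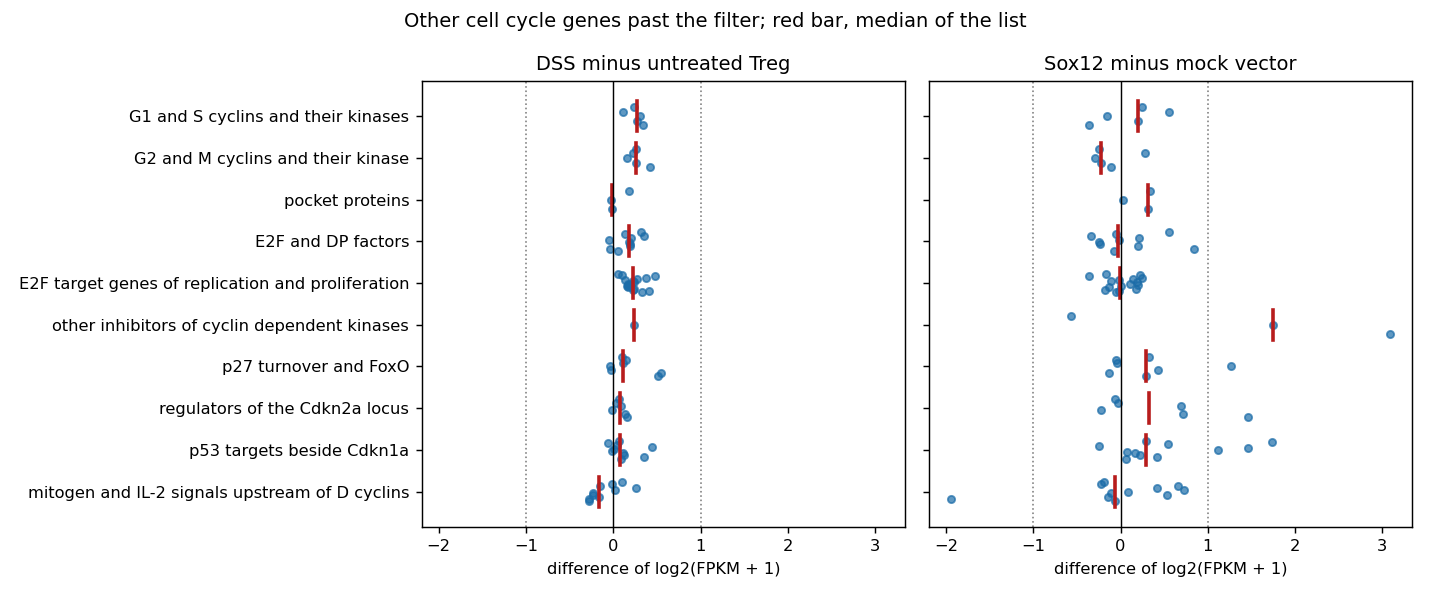
Difference of log2(FPKM + 1) for each gene past the filter of 10 lists of the same pathway, DSS minus untreated Treg (left) and Sox12 minus mock vector (right), with 1 point per gene, a red bar at the median of each list and dotted lines at the size rule. In Treg all 16 E2F targets lie above 0 with a median of 0.23. With the Sox12 vector their median is -0.01, and 2 of 3 genes of the other inhibitor list lie past 1. The list of Cdkn2a locus regulators also holds Mdm2, which acts on p53.

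Markers of erythroid cells and of basophil, mast and myeloid granules also differed between the Treg libraries. All 10 erythroid markers were higher in DSS Treg, beside 66.1% of all genes. Their summed level was 796 FPKM in DSS Treg, against 520 FPKM in untreated Treg. Of the basophil, mast and myeloid granule list the sum over 8 markers was 55.9 FPKM in DSS Treg and 27.04 FPKM in untreated Treg, and none was at 0. The basophil protease Mcpt8 had 12.6 FPKM in DSS Treg and 2.56 FPKM in untreated Treg. The 6 markers past the filter were higher, beside 66.1% of all genes. Of them 3, Mcpt8, Prss34 and Ctsg, were at least 2 times higher, beside 0.19% of all genes. The markers below the filter were lower. S100a8 had 0.678 FPKM in DSS Treg and 1.08 FPKM in untreated Treg. S100a9 had 0.449 FPKM in DSS Treg and 1.19 FPKM in untreated Treg. The part of the erythroid and granule markers in the levels of Cdkn2c and of the replication genes was not tested.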

How the data were processed

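Total RNA was sequenced from 4 mouse T cell samples, with a strand-specific library kit, per the labels' protocols. Cufflinks and the build mm9 are named in the submitters' processing notes, and the sources used here do not give versions, aligner, annotation or the use of strand. The authors deposited FPKM with a fold change (ratio) for Treg, and log2(FPKM + 1) values with their difference for the vectors. Both derived columns were recomputed, to within a relative difference of 0.000449 and a difference of 5e-10. The Treg table lists genes above 1 FPKM in at least 1 library (lowest maximum 1.00036). Log2 values were turned back to FPKM. Rows whose symbol had become a date, 16 and 25, were left out.

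Each group has a single library, so nothing was tested. Changes are differences of log2(FPKM + 1), which understates the change of low genes. The genes and lists were chosen with earlier results of these data known. All 10 genes are named. Of each pathway list up to 4 members past the size rule are named with their values, or else the 2 with the highest mean. Cdkn3 and the markers named were chosen after their values were seen. Fragments were estimated from the most frequent step of low values in genes with a single GENCODE M21 transcript. They rest on few genes, are not corrected for fragment size and use the shortest coding transcript. The steps were tested on simulated data. Alternatives were pseudocounts of 0.1 and 5, no filter or a mean of at least 5 FPKM, and 3 scalings. Python 3.11.15, pandas 2.3.3 and SciPy 1.17.1 were used.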

Additional observations from a re-analysis of the deposited data

How the results depend on the processing

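No paired analysis was possible because each group holds 1 library, and for the same reason no library could be left out. Across the alternatives the count of genes at least 2 times higher or lower was 0 and 0 in Treg and 1 and 0 with the Sox12 vector, the 1 gene being Cdkn2a, whose log2 change ranged from 1.25 (pseudocount of 5) to 1.84 (pseudocount of 0.1). Cdk4 ranged from 0.86 to 0.95 and Ccnd3 from -0.72 to -0.63, both short of the size rule under every alternative run. Without the filter, which adds Ccnd1, the median of the cell cycle genes with the Sox12 vector was 0.10 in place of 0.22. Ccnd1 itself, at -0.02, turned to 0.00 when totals without the 20 highest genes were made equal. The scalings moved the median change of all genes by -0.05 to 0.05 on the log2 scale. Counting error is known only for the vector libraries, where of the 10 genes it limits Ccnd1 most.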

Other observations

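Of the D cyclins, kinases and inhibitors past the filter in both tables, Cdk4 had the largest change between the vector libraries. By the Euclidean distance over the pair of changes, among 7320 genes whose mean reached 5 FPKM in both tables, the 5 genes nearest to it were 2310021P13Rik, Arap1, Gm10509, Foxn3 and Kdm4a, at distances of 0.03. Kdm4a, a histone demethylase, had 31.4 FPKM in DSS Treg and 29.6 FPKM in untreated Treg, and 39.4 FPKM with the Sox12 vector and 21.2 FPKM with the mock vector. The likeness rests on 2 changes, each between single libraries.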
